A study of Rattus norvegicus with 24 samples.

Results

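The 150 transcripts described here are abundant in rat brain and much lower in liver. They were chosen from the 22938 transcripts listed for every library, of which 4960 had no count in any library. The measure used to choose them was CPM, a transcript's count divided by the total count of its library and multiplied by 1000000, which is not corrected for transcript length. Their mean in young brain RNA-seq was at least 10 times the sum of their mean in young liver RNA-seq and 0.05 CPM, and they had more than 5 counts over the 12 liver libraries. Of the 2214 transcripts that met both conditions, the 150 with the highest young brain mean were taken. The rule names 4 identifiers to be left out, and 0 of them stood within the rank limit. The young brain and liver RNA-seq levels therefore chose the members and are given here as description.

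RNA-seq and ribosome profiling were carried out on brain and liver of old rats aged 24 months and young rats aged 6 months, with 3 animals at each age. Sample titles carry 1 code per animal, so both organs and both assays came from the same 6 animals, which makes 8 groups of 3 libraries and 24 libraries in all. The labels give neither strain nor sex, and they name no genetic change, agent or treatment for either age. The libraries came from homogenised tissue, in which fewer cells of a type and less RNA per cell cannot be told apart. The p-values measure the spread between these 3 samples per group.

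Brain and liver are built from largely different cells: neurons and glia transcribe the genes of synapses, axons and myelin, whereas hepatocytes transcribe those of plasma proteins and of intermediary metabolism. Liver also holds nerve fibres, vessels, bile ducts and immune cells, and many transcripts that are abundant in brain are housekeeping ones that other tissues transcribe at a lower level. RNA-seq reports how much of a transcript is present, while ribosome profiling counts the fragments that ribosomes shield from nuclease, so the ratio of footprints to RNA is commonly read as a measure of translation per transcript. The files identify transcripts by Ensembl identifiers only, and 0 of the 22938 could be paired with a gene symbol, so members are named by identifier and their functions are not given.

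RNA-seq libraries held 14281043 to 28664906 counts and ribosome profiling libraries 5259326 to 17584871. As a marker of liver RNA in brain libraries, 50 liver-enriched transcripts were used. They had the highest young liver RNA-seq means among transcripts at least 10 times as high there as in young brain plus 0.05 CPM. In brain of old animal 2 they stood at 4.66% of their liver level in RNA-seq and 6.19% in ribosome profiling, against 0.787% to 0.990% and 0.653% to 1.17% in the other 5 brains. Members with counts identical to another transcript in all libraries numbered 0.

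At the rank limit, the last member was ENSRNOT00000015927 with a young brain mean of 391.9 CPM, and the first transcript beyond it was ENSRNOT00000028633 with 387.7 CPM. The member nearest the ratio limit was ENSRNOT00000038946, with 514.1 CPM in young brain and 51.2 CPM in young liver. ENSRNOT00000041789 lay just outside, with 455.0 CPM in young brain and 45.5 CPM in young liver. The fewest liver counts inside were the 6 of ENSRNOT00000015084, and 13 transcripts with as high a brain level were kept out because they had 5 or fewer.

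Liver counts of the members were low for some and substantial for others. In young liver RNA-seq, 34 of the 150 averaged below 1 CPM, 40 lay between 1 and 10 CPM and 76 reached 10 CPM or more, and these 76 held 94.8% of the members' summed liver level. In old liver RNA-seq the same classes held 35, 38 and 77 members. Fewer members reached 10 CPM in liver footprints, with 61 in old and 57 in young animals. Summed over the 12 liver libraries, a member had 6 to 65746 counts with a median of 1986, and 122 members had counts in all 12. The set is brain-enriched by its rule, whereas trace liver counts describe only the lowest of these classes.

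The share of all counts taken by the 150 transcripts in brain lay close together between animals of an age. In RNA-seq they took 12.6%, 12.2% and 12.4% of the counts of old brains, against 12.9%, 13.1% and 13.1% of young brains. In ribosome profiling they took 15.1%, 14.5% and 14.8% in old brains, against 15.4%, 15.2% and 15.1% in young brains. In liver RNA-seq they took 0.307%, 0.297% and 0.429% in old animals, against 0.306%, 0.340% and 0.341% in young animals. Liver footprints gave 0.350%, 0.332% and 0.436% in old animals, against 0.310%, 0.313% and 0.313% in young animals. The ages did not overlap in brain RNA-seq, where young levels ranked the members, nor in brain or liver footprints, and they overlapped in liver RNA-seq. Young footprints came from the animals whose RNA chose the members, so these shares are description. Old animal 3 had the highest liver share in both assays.

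The member with the highest mean in old brain RNA-seq was ENSRNOT00000019239. Its RNA stood at 3851, 3737 and 3875 CPM in old brains, against 4091, 4112 and 4080.3 CPM in young brains. Its liver RNA was 286, 258 and 566 CPM in old animals, against 217, 254 and 248 CPM in young animals. It was also the member with the most old liver RNA, at 10.7% of the members' summed level, and the liver of old animal 3 stood well above the other 5. Its liver footprints were likewise highest in old animal 3, with 294, 248 and 546 CPM in old animals, against 179, 183 and 177 CPM in young animals.

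The next most abundant, ENSRNOT00000047472, had 3269, 3378 and 3594 CPM in old brain RNA-seq, against 4140.3, 3407 and 3808 CPM in young brain. Its liver RNA was 81.6, 124 and 111 CPM in old animals, against 142, 153 and 142 CPM in young animals. Its old liver RNA values all lay below the young ones (log2 fold change -0.35, SE 0.178), which edgeR did not call (adjusted p = 0.274). Its liver footprints were 57.4, 73.9 and 54.3 CPM in old animals, against 60.1, 40.9 and 40.9 CPM in young animals, and overlapped (log2 fold change 0.30, SE 0.213).

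The extremes of the liver level relative to brain were far apart. ENSRNOT00000051139 had the highest liver share, with 545, 490.1 and 592 CPM in old brain RNA-seq and 55.8, 59.2 and 85.2 CPM in old liver, a mean liver level of 12.3% of the brain level. Its young liver libraries were uneven, at 86.5, 32.3 and 34.5 CPM. At the other end, ENSRNOT00000006219 had 1067, 1005 and 1035 CPM in old brain RNA-seq, while the 3 old livers held 0, 0 and 1 count of it.

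Because only young RNA-seq set the ratio, old RNA-seq and both sets of footprints hold the same contrast in libraries the ratio did not use. All liver libraries entered the sum of liver counts, and young footprints came from the animals whose RNA set the ratio. The values below are therefore description. In old RNA-seq, 146 of the 150 members were at least 10 times as high in brain as in liver plus 0.05 CPM, against 22.8% of all transcripts tested. The lowest ratio was 8.12, for ENSRNOT00000051139, and 64 members reached a ratio of 100 and 30 a ratio of 1000. In old footprints, 144 members did so, against 24.1% of all transcripts, with the lowest ratio of 7.61 for ENSRNOT00000019239. In young footprints, 148 members reached 10 times, against 26.3% of all transcripts, and the lowest ratio was 8.72, for ENSRNOT00000012983. The plot of brain against liver levels shows the spread behind these counts.

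**Figure D1:**
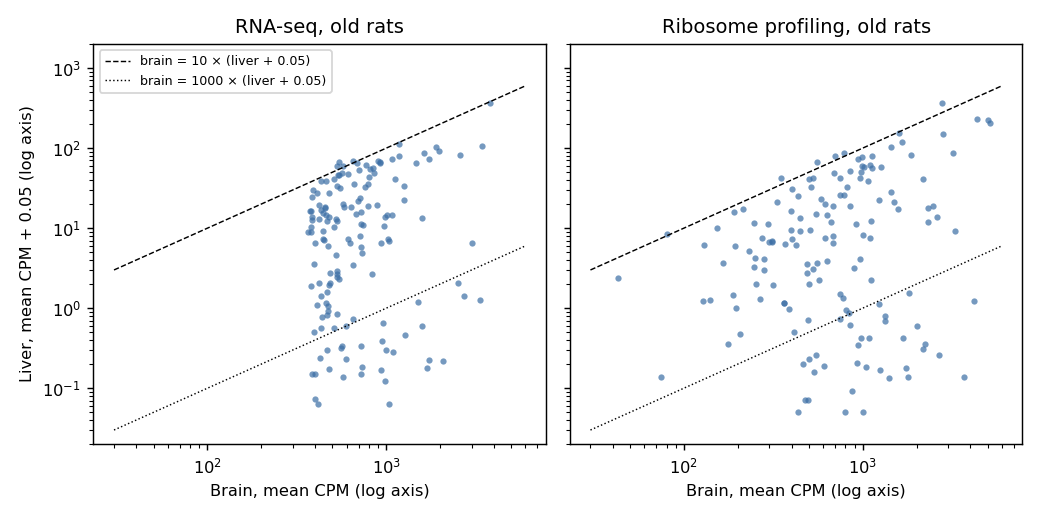
Mean CPM of each of the 150 members in brain (horizontal log axis) against mean CPM plus 0.05 in liver (vertical log axis), in old rats, for RNA-seq (left) and ribosome profiling (right), with 1 point per member (means of 3 animals). In RNA-seq 146 points lie on or below the dashed line at a ratio of 10 and 30 on or below the dotted line at 1000; in ribosome profiling 144 and 33 do.

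Pooling the 3 libraries of a group, with liver set to a floor of 3 counts over the group where it held fewer, the median ratio of brain to liver was 62.5 in old RNA-seq, 80.9 in old footprints and 120.2 in young footprints. Over the group, 0 members had no count in old liver RNA-seq, 3 had none in old liver footprints and 6 had none in young liver footprints. Across the 150 members, which share libraries and depth, brain and liver levels in old RNA-seq had a Spearman's rho of 0.194 and a Pearson's r of 0.139 on a log2 scale. Old liver RNA and old liver footprints, by contrast, had a rho of 0.957, and old brain RNA and old brain footprints a rho of 0.624.

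The organs were also compared with edgeR's quasi-likelihood test, which scales libraries by TMM factors (trimmed means of log ratios, meant to allow for libraries in which a few transcripts take many reads). All 150 members were called higher in brain at a Benjamini-Hochberg adjusted p under 0.05 in old RNA-seq, old footprints and young footprints, where 44.1%, 41.1% and 43.3% of all transcripts tested were called higher. Every member passed the filter on low counts through its brain libraries, so these counts are a description. On the TMM scale the fitted folds were smaller: 108 members reached 10-fold in old RNA-seq, 112 in old footprints and 116 in young footprints, against 17.8%, 18.2% and 19.3% of all transcripts. The 50 liver-enriched transcripts alone summed to 366559 to 491468 CPM in the liver libraries.

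The call was least certain for ENSRNOT00000061228, named after its values were seen. Its liver RNA was 13.5, 23.9 and 1.05 CPM in old animals and its liver footprints were 10.8, 16.2 and 0.195 CPM in old animals, against 5.32, 7.91 and 7.85 CPM in young animals. Old animal 3 thus held more than 10 times less of it than the other 2 old livers in both assays. The adjusted p in edgeR's test of old footprints was 0.0426, and it was 0.0529 with the animal as a block, 0.0974 without replicate 1 and 0.0919 without replicate 2. In old RNA-seq it was 0.0237, and 0.0937 without replicate 1.

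The liver level of the members, summed and set against the brain of the same animal, was 2.43%, 2.44% and 3.45% in old RNA-seq, against 2.37%, 2.60% and 2.61% in young RNA-seq. The means were 2.77% ± 0.586 in old and 2.53% ± 0.133 in young animals (SD, n = 3 each), and the ages overlapped. The rule capped young liver RNA and ranked by young brain RNA, so the RNA-seq shares are description. Young footprints came from the same animals as that RNA, so the footprint shares are description too. In footprints the liver level was 2.32%, 2.30% and 2.95% of brain in old animals, against 2.01%, 2.05% and 2.07% in young animals. Those means were 2.52% ± 0.372 in old and 2.04% ± 0.0289 in young animals (SD, n = 3 each), and the ages did not overlap, but 3 animals against 3 cannot reach an exact permutation p below 0.1.

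Scaling and the choice of summary moved these values. With TMM-scaled library sizes the share was 6.31%, 6.26% and 7.51% in old RNA-seq, against 5.81%, 5.66% and 5.68% in young RNA-seq, without overlap. Nothing is read from this, since the rule used the young RNA-seq levels. In footprints it became 6.58%, 5.82% and 7.01% in old animals, against 5.72%, 6.41% and 5.81% in young animals, and the ages then overlapped. Old animal 3 weighed heavily on the RNA-seq difference, which was 0.247 percentage points and turned to -0.0915 without that animal.

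**Figure D2:**
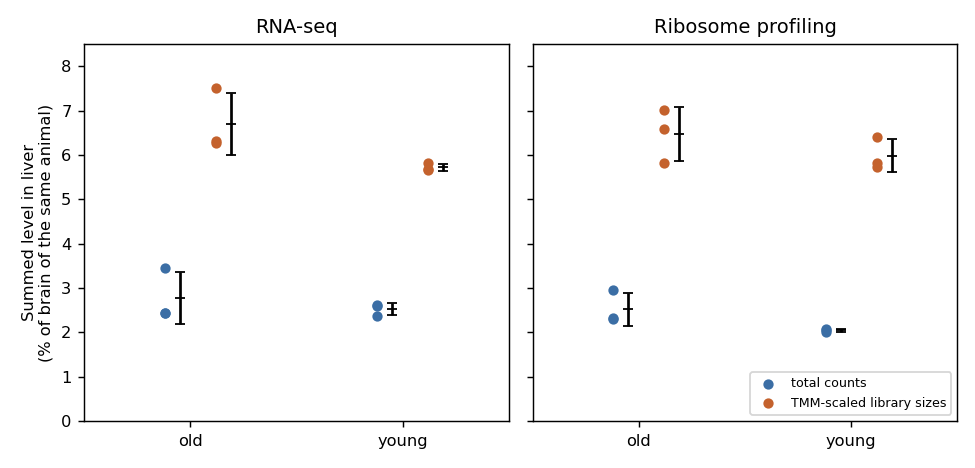
Summed liver level of the 150 members as a percentage of the brain level of the same animal, old left and young right, for RNA-seq and ribosome profiling, with 1 point per animal and bars of mean ± SD (n = 3). Blue points use total counts and orange points TMM-scaled library sizes. In blue the old footprint values (2.30% to 2.95%) lie above the young ones (2.01% to 2.07%), while in orange they overlap. RNA-seq of the young animals chose the members, so both panels are description.

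Member by member, the liver library with the highest level was often that of old animal 3. The rule capped young liver RNA-seq, which made a young library less likely to be highest. The young footprints came from the same animals, so these shares are description. Among the 6 liver RNA-seq libraries, old animal 3 had the highest value for 74 of the 150 members, or 49.3%, while this was so for 36.1% of all transcripts with at least 50 counts. In footprints it was so for 78 of 149 members, or 52.3%, against 39.1% of all. For 55 members this animal was highest in both assays, but no such share over all transcripts is at hand, so nothing is read from this number.

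The members were next compared between ages in liver, where edgeR called none and other fits called some. In liver footprints, 112 of the 150 members passed the filter on low counts, and edgeR called 0 of them at an adjusted p under 0.05, against 0.0176% of all transcripts. At an unadjusted p under 0.05 there were 16 members, against 12.2% of all transcripts, and DESeq2 called 4, against 1.94% of all transcripts. The smallest p was that of ENSRNOT00000006443, whose liver footprints were 33.9, 44.2 and 91.6 CPM in old animals, against 21.3, 18.3 and 15.5 CPM in young animals. The ages did not overlap, its log2 fold change was 1.49 (SE 0.311), and its edgeR adjusted p was 0.141.

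In liver RNA-seq, 125 members passed the filter, edgeR called 0 of them, against 0.0164% of all transcripts, and DESeq2 called 19 (13 higher and 6 lower in old animals), against 8.88% of all transcripts. At an unadjusted p under 0.05 there were 35 members, against 23.1% of all transcripts. The smallest p belonged to ENSRNOT00000023872, at 12.5, 12.4 and 18.7 CPM in old livers, against 8.33, 7.83 and 7.31 CPM in young livers (log2 fold change 0.97, SE 0.154, edgeR adjusted p = 0.055). Young liver RNA-seq was capped by the rule, so nothing is read from these counts. Without young animal 1, edgeR called 13 members in liver RNA-seq, against 5.14% of all transcripts, and 1 in liver footprints, against 0.814%.

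Footprints relative to RNA were measured in old brain, from libraries that neither ranked the members nor set their ratio. Of the 150 members, 78 were higher in footprints than in RNA and 57 lower, at an edgeR adjusted p under 0.05, against 32.6% and 32.3% of all transcripts tested. The median log2 ratio was 0.18 over the members and 0.01 over all transcripts. The 211 other transcripts with as high a young brain mean leaned the other way, with 76 higher, 118 lower and a median of -0.39.

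The highest ratio was that of ENSRNOT00000020932, named for its rank, with footprints of 4644, 4455 and 3900.0 CPM in old brains and RNA of 1236, 1187 and 1108 CPM in the same brains (log2 ratio 2.0, SE 0.0774). The lowest was that of ENSRNOT00000055552, with footprints of 43.2, 41.0 and 44.0 CPM in old brains and RNA of 375, 384 and 400.3 CPM in the same brains (log2 ratio -3.06, SE 0.0588). The replicate animals lay close together beside this range of ratios. Per animal, the median log2 ratio of CPM over the members was 0.04, 0.05 and 0.11 in old brains, against 0.10, 0.11 and 0.04 in young brains, so the ages overlapped.

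**Figure D3:**
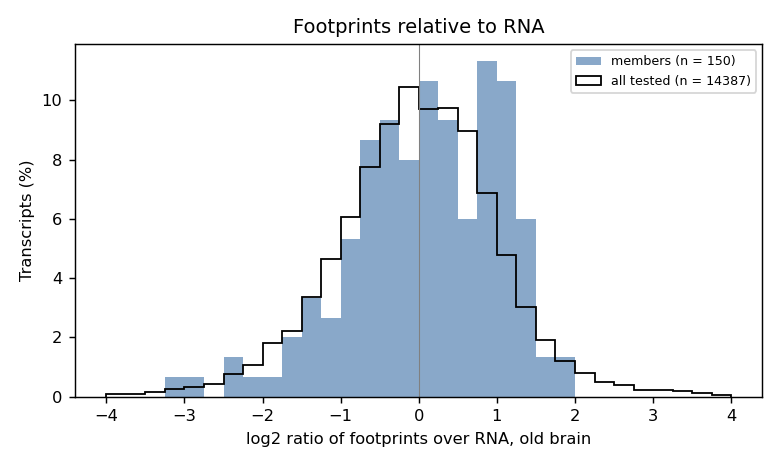
Distribution of the log2 ratio of footprints over RNA in old brain (horizontal axis) as a percentage of transcripts (vertical axis), for the 150 members (blue, filled) and all 14387 transcripts tested (black line). The members spread on both sides of 0, from -3.06 to 2.0, with a median of 0.18 against 0.01 for all; transcripts beyond ±4 are not drawn.

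The median ratio was highest in the class of members that liver held least of, and the other classes were not graded. The classes were cut on young liver RNA-seq, which the rule used. Of all transcripts tested, 32.6% were called higher in footprints and 32.3% lower. Among the 34 members below 1 CPM in young liver RNA-seq, 23 were higher in footprints and 7 lower, with a median log2 ratio of 0.54. Among the 40 between 1 and 10 CPM, 18 were higher and 16 lower, with a median of -0.02, and among the 76 at 10 CPM or more, 37 were higher and 34 lower, with a median of 0.06. The ratios of a member in the organs went together: across the 116 members with at least 30 counts in each old liver group, brain and liver ratios had a Spearman's rho of 0.815. Across the 150 members the ratio in old brain also had a rho of -0.635 with the length-like value that the files give for each transcript. These are descriptions over members that share libraries, and the part of length in the counts was not tested.

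With age, brain footprints of the members were called lower more often than higher. Of the 150 members, 5 were higher and 21 lower in old brains at an edgeR adjusted p under 0.05, or 3.33% and 14%, against 0.789% and 0.921% of all 13570 transcripts tested. The changes were small: those called lower had log2 fold changes of -0.49 to -0.16, which are ratios of 0.714 to 0.892, and those called higher 0.19 to 0.41, which are ratios of 1.14 to 1.33. The median over the members was -0.10 and over all transcripts 0.01, with 97 members below 0 and 53 above. Of the 211 other transcripts with as high a young brain mean, 3 were higher and 8 lower, with a median of -0.02. The median SE was 0.0585 over the members, 0.0659 over these 211 and 0.193 over all transcripts, so smaller changes could be called among abundant ones. Young footprints came from the animals whose brain RNA ranked the members, so these counts are description.

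The largest rise was that of ENSRNOT00000007175, with brain footprints of 1912, 1651 and 1994 CPM in old animals, against 1446, 1364 and 1385 CPM in young animals (log2 fold change 0.41, SE 0.0534, edgeR adjusted p = 0.00021). Its brain RNA stood at 1135, 1043 and 1193 CPM in old animals, against 903, 923 and 822 CPM in young animals (log2 fold change 0.34, SE 0.0542). In neither assay did the ages overlap. Its length-like value, 121, was the lowest of the 150.

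ENSRNOT00000020926 followed, with brain footprints of 1774, 1549 and 1896 CPM in old animals, against 1417, 1258 and 1323 CPM in young animals (log2 fold change 0.39, SE 0.0579, edgeR adjusted p = 0.000851). Its RNA was 700.4, 633 and 854 CPM in old brains, against 583, 548 and 551 CPM in young brains, which did not overlap (log2 fold change 0.37, SE 0.0951) and was not called by edgeR. This member was nearly absent from liver RNA-seq, with 5, 2 and 4 counts in old animals and 5, 1 and 0 in young animals.

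The largest fall was that of ENSRNOT00000032064, with brain footprints of 196, 191 and 182 CPM in old animals, against 249, 283 and 270.0 CPM in young animals (log2 fold change -0.49, SE 0.0752, edgeR adjusted p = 0.00093). Its RNA was 543, 522 and 586 CPM in old brains, against 553, 672 and 608 CPM in young brains, and the ages overlapped. ENSRNOT00000011043 came next, with footprints of 143, 127 and 146 CPM in old brains, against 184, 197 and 183 CPM in young brains (log2 fold change -0.43, SE 0.0799, edgeR adjusted p = 0.00525). Its RNA was 614, 623 and 711 CPM in old brains, against 712, 776 and 834 CPM in young brains, which did not overlap either (log2 fold change -0.27, SE 0.0674). EdgeR called neither RNA difference.

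**Figure D4:**
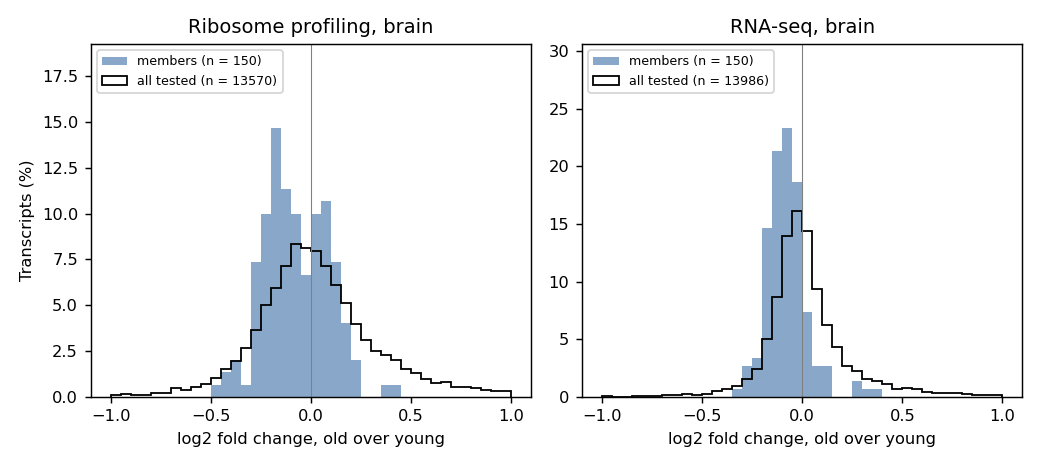
Distribution of log2 fold changes, old over young brain, in ribosome profiling (left) and RNA-seq (right), as a percentage of transcripts, for the 150 members (blue, filled) and all transcripts tested (black line). The members' medians, -0.10 in footprints and -0.09 in RNA, lie below those of all transcripts, 0.01 and -0.0045. The 211 other transcripts with as high a young brain mean, not drawn, had medians of -0.02 and -0.05. Transcripts beyond ±1 are not drawn.

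The RNA of the members called lower in footprints lay below 0 as well. Of the 21 called lower in footprints, the RNA log2 fold change was below 0 in 21, with a median of -0.17, and 3 of these were called lower in RNA too. Below 0 in RNA were also 84.7% of all 150 members and 51.2% of all transcripts tested. Among the 211 other transcripts with as high a young brain mean it was 78.7%, so most of this lean was shared by them. Of the 5 called higher, RNA was above 0 in 2 and below 0 in 3. The RNA values include the young brain libraries that ranked the members, so a high young value helped a transcript to enter the set. Footprints and RNA came from the same animals.

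The calls in brain footprints rested on small errors. Without old animal 1, 2 members were higher and 6 lower, without young animal 2 it was 2 and 5, and without young animal 3 it was 2 and 7. Of all transcripts, 0.413%, 0.238% and 0.34% were called in those fits. With the spread estimated over all 12 ribosome profiling libraries in place of the 6 brain ones, edgeR called 0 members, with 5 at an unadjusted p under 0.05, while 8 higher and 1 lower were called among all transcripts. Without old animal 2, whose brain libraries held the most liver-enriched RNA, 3 members were higher and 17 lower, against 1.86% of all transcripts either way.

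Age changes in brain footprints also went with the length-like value. The 5 members called higher had values of 121 to 399 and the 21 called lower values of 212 to 2726, with medians of 170 and 1100. Across the members the log2 fold change in footprints had a Spearman's rho of -0.414 with the length-like value, and across all transcripts tested -0.07. Within single libraries, footprint CPM of the members had a rho with the length-like value of -0.421, -0.422 and -0.411 in old brains, against -0.377, -0.374 and -0.379 in young brains. Over 14217 transcripts the same rho was 0.198, 0.184 and 0.195 in old brains, against 0.198, 0.194 and 0.194 in young brains. With each library's trend with length removed, 4 members were called higher and 17 lower, and 20 of these 21 were among the 26. Of all 13570 transcripts, 75 were called higher and 117 lower in that fit, or 1.41% either way.

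**Figure D5:**
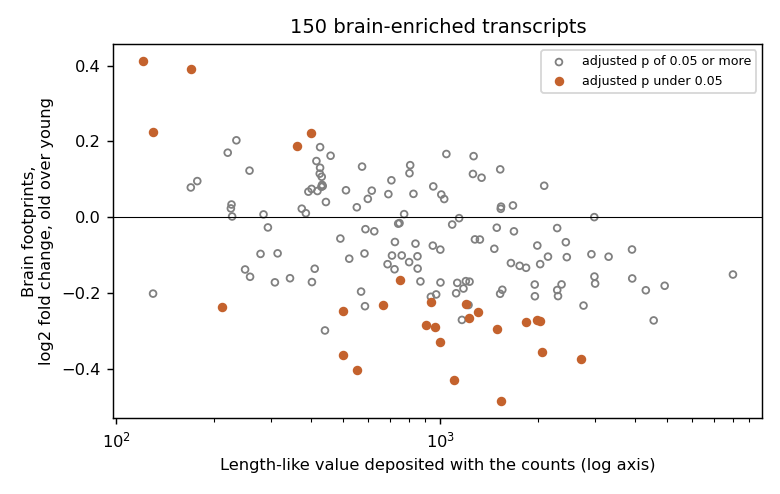
Log2 fold change of brain footprints, old over young (vertical axis), against the length-like value deposited beside the counts (horizontal log axis), with 1 point per member. The 26 members with an edgeR adjusted p under 0.05 are filled: the 5 above 0 lie between 121 and 399, and the 21 below 0 between 212 and 2726.

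In brain RNA-seq, where young levels ranked the members, 1 was called higher and 3 lower in old brains, against 0.315% and 0.157% of all transcripts tested, and nothing is read from these counts or from the values that follow. The median log2 fold change was -0.09, with 127 members below 0 and 23 above. For the 211 other transcripts with as high a young brain mean it was -0.05, with 166 below 0 and 45 above. The lowest log2 fold change was that of ENSRNOT00000009288, with RNA of 2537, 2519.6 and 2709 CPM in old brains, against 3229.6, 3105 and 3207 CPM in young brains (log2 fold change -0.31, SE 0.0404). Its footprints did not rank the members but came from the same animals as the RNA that did. They were lower in old brains (log2 fold change -0.37, SE 0.0553, edgeR adjusted p = 0.000828). ENSRNOT00000015084, the member with the fewest liver counts, had RNA of 425, 412 and 416 CPM in old brains, against 479, 514 and 488 CPM in young brains (log2 fold change -0.25, SE 0.0424). Its footprints, also from the same animals, were 422, 415 and 461 CPM in old brains, against 499.98, 529.5 and 502 CPM in young brains (log2 fold change -0.23, SE 0.0608, edgeR adjusted p = 0.0489). DESeq2 called 18 members, against 2.14% of all transcripts. Without young animal 1 edgeR called 45, against 7.98% of all transcripts, and without any 1 other animal 0 or 1, against 0.00707% to 0.0709%.

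Whether age changed footprints beyond RNA was tested as an interaction of age and assay over the 12 brain libraries. The young RNA-seq libraries that ranked the members enter this contrast, so its values are given as description. Of the 150 members, 1 was called higher and 0 lower in old brains, against 0.075% and 0.00682% of all transcripts, and 22 had an unadjusted p under 0.05, against 7.1% of all. That member was ENSRNOT00000046240. Its footprints were 699.7, 703 and 685 CPM in old brains, against 610.2, 593 and 593 CPM in young brains. Its RNA was 906, 911 and 888 CPM in old brains, against 1018, 976 and 936 CPM in young brains. Footprints were thus higher and RNA lower in all old animals (log2 difference of ratios 0.37, SE 0.0664, edgeR adjusted p = 0.0448). The median over the members was 0.03, as it was over all transcripts. The call was lost under 10 of the 12 alternatives tried, with adjusted p of 0.0561 to 0.396 in edgeR. With the animal as a block, 2 members were called, this one among them, against 0.211% of all transcripts.

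The age effect on footprints was also compared between the organs. Of the 150 members, edgeR called 0 in the interaction of age and organ, against 0.0139% of all transcripts, 27 had an unadjusted p under 0.05, against 12.3% of all, and DESeq2 called 14, against 2.67% of all. Of these 150, 38 had too few liver footprints to pass the filter in liver alone and entered through brain, so no median is given and nothing is read from these counts. The smallest p belonged to ENSRNOT00000019551, whose brain footprints were 229, 223 and 285 CPM in old animals, against 299, 297 and 298 CPM in young animals. Its liver footprints were 9.44, 14.2 and 11 CPM in old animals, against 5.32, 4.41 and 6.71 CPM in young animals. Brain values were therefore lower and liver values higher in old animals, without overlap in either organ (difference -1.22, SE 0.245, edgeR adjusted p = 0.106). Leaving out each animal in turn gave -1.44 to -0.96 for this difference.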

How the data were processed

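RNA-seq and ribosome profiling of brain and liver were analysed in 24 libraries. The deposited files hold whole-number counts per transcript for 22938 Ensembl transcripts, raw, with a second number per transcript that looks like a length and is not explained in the files. Reads were handled on the rn4 build with TopHat2 2.0.10 and Bowtie 1.0.0.0, and DESeq is listed too, per the submitters' processing notes; the step each served, the annotation and the counting rule: not given in the sources used here. Total RNA and a strand-specific kit were used for RNA-seq, per the labels' protocols. How reads shared by isoforms or near-identical copies were counted is not given, so levels of single transcripts are uncertain where such copies exist.

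CPM was computed from column totals. Each comparison was fitted over all transcripts by the quasi-likelihood F test of edgeR (version 4.0.16, under R 4.3.3; robust, TMM factors, filterByExpr with a minimum count of 10 and total of 15, two-sided) on the libraries compared only. P-values were adjusted by Benjamini-Hochberg over all transcripts tested, with a threshold of 0.05, and only the members' results are given. SE is the log2 fold change divided by the square root of F. The fits were tested on simulated counts with 200 transcripts changed 2-fold or 4-fold. Over the comparisons, 17% to 85% of 2-fold and 54% to 97% of 4-fold changes were recovered, with 1 to 14 false calls. For brain footprints between ages, 10 of 151 calls were false, and for old footprints between organs 14 of 119. Changes below 2-fold were not simulated. DESeq2 1.42.0, other factors, no filter, a block and leaving out each replicate were alternatives. The 4 identifiers left out made no difference to the members.

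The members and lists were chosen with earlier results of these data known. Named transcripts were the 2 highest in old brain RNA-seq, the extremes of old liver as a share of brain, per age comparison up to 2 rises and 2 falls with an adjusted p under 0.05 and no overlap between ages (otherwise the smallest p), and those at the rank limit. Others named were chosen after their values were seen. Title codes tie organs and assays to 1 animal. Deviations of the same animal from its group means correlated at 0.181 to 0.818 between assays and -0.048 to 0.164 between organs.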

Additional observations from a re-analysis of the deposited data

Results flagged for a closer look

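ENSRNOT00000046240 was picked out because its age effect differed between the assays: the old over young difference in brain was larger in footprints than in RNA by 0.37 on the log2 scale (SE 0.0664, edgeR adjusted p = 0.0448). Footprints were called higher in old brains (log2 fold change 0.23, edgeR adjusted p = 0.0407), while RNA was at -0.13 and was not called (edgeR adjusted p = 0.241). In 3 of 3 old animals footprints were above, and RNA below, all young values. The call was kept with DESeq2 and with the animal as a block and lost under the other 10 alternatives. The young RNA-seq values in this contrast ranked the members.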

How the results depend on the processing

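Counts of members called between ages depended on single animals and on how the spread was estimated. Organ calls numbered 149 or 150 of the 150 members under every alternative tried, and the 1 lost was ENSRNOT00000061228. Of all transcripts, 61.9% to 80.7% were called either way in those fits. The rule chose the members by their brain over liver ratio, so these counts are description. Leaving out each animal in turn gave 7 to 29 calls in brain footprints (26 in all animals), 0 to 45 in brain RNA (4), 0 to 1 in liver footprints (0), 0 to 13 in liver RNA (0), 0 in age by assay (1) and 0 to 2 in age by organ (0). In the same order, 0.238% to 2.33%, 0.00707% to 7.98%, 0% to 0.814%, 0% to 5.14%, 0% to 0.0409% and 0% to 0.624% of all transcripts were called. DESeq2 called 32 members in brain footprints, 18 in brain RNA, 4 in liver footprints, 19 in liver RNA, 6 in age by assay and 14 in age by organ, against 2.82%, 2.14%, 1.94%, 8.88%, 0.416% and 2.67% of all transcripts. With the replicate block there were 31 calls in brain footprints, 15 in brain RNA, 2 in liver RNA and 2 in age by assay. Of all transcripts, 2.84%, 2.05%, 0.648% and 0.211% were called in those fits. The block changed the organ call of ENSRNOT00000061228 in old footprints and no other organ call. Numbers shared between ages belong to different animals, and the deviations of same-numbered animals correlated at -0.0718 to 0.179, with 5 of 12 best with their own number. Without a filter on low counts there was 1 call in liver RNA, against 0.902% of all transcripts, and 0 in age by assay, against 0.0507%. Median-ratio and upper-quartile factors also gave 0 in age by assay, against 0.0273% and 0% of all transcripts. In alternatives chosen after seeing the data, the spread over 12 libraries gave 0 calls in brain footprints, 0 in brain RNA, 4 in liver footprints and 34 in liver RNA (25 higher and 9 lower). Of all transcripts, 0.0623%, 0%, 0.443% and 14.7% were called in those fits. Removal of the length trend gave 0 in age by assay, against 0% of all transcripts. The difference between ages in the liver share of the summed level, in percentage points, was 0.247 in RNA, became 0.975 with TMM-scaled library sizes and turned to -0.0352 with the median over members, and leaving out animals gave -0.0915 to 0.417, against 0.261 to 0.588 in footprints. The rule used the young RNA-seq levels that enter the RNA difference, and the young footprints came from the same animals. The cause of these differences was not tested. Depth limits the members with few liver counts: 38 of the 150 in footprints and 25 in RNA did not pass the filter in liver.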
